A study of Mus musculus with 2 samples.

Results

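Cluster 4 of the mouse esophagus held the basal keratinocytes, taken here as the cells to which the authors' annotation table gives cluster number 4. It counted 406 of 4853 cells, 93 of 2381 in the Keap1 cKO library and 313 of 2472 in the Control library. The Keap1 cKO library came from K5CreERT2::Keap1 floxB/floxB mice, in which a tamoxifen-inducible Cre recombinase is driven by the keratin 5 promoter. Control mice were Keap1 floxB/floxB, so the floxed alleles were shared by both genotypes. All mice were a hybrid of C57BL/6J and BALB/c. The muscle layers of the esophagus were removed, the rest was dispersed with trypsin-EDTA and a gentleMACS dissociator, and 3′ single-cell RNA libraries were made with 10x Genomics reagents. The sources used here do not give age, sex, the time after induction or the number of animals per library. With 1 library per genotype nothing could be tested between genotypes, and each interval below is a 95% interval that covers counting error only.

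The esophagus is lined by a stratified squamous epithelium. Its basal cells sit on the basement membrane, hold on to it through hemidesmosomes, express the transcription factor p63 and keratins 5, 14 and 15, and divide. Their daughters leave the basal layer, exchange these keratins for keratins 4 and 13 and flatten toward the lumen. KEAP1 is the adaptor through which the transcription factor NRF2 is marked for degradation, and NRF2 drives genes for glutathione synthesis, detoxification and NADPH supply. Keratin 5 is itself a gene of the basal layer, the layer that the Cre driver is used to reach.

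Transcripts were counted as unique molecular identifiers (UMIs) and summed within each cluster of either library. They are given per 1000000 UMIs of that sum, as counts scaled by library and cluster (CPM). Cluster 4 held 2612821 UMIs in Keap1 cKO and 6496387 UMIs in Control. The median cell had 26254 UMIs and 4752 genes in Keap1 cKO and 20487 UMIs and 4334 genes in Control. Depth was more spread in Keap1 cKO, where 23 cells had under 5000 UMIs, against 2 cells in Control. The 23 shallow Keap1 cKO cells together held 51466 UMIs, and 22 of them had a Krt5 UMI and 22 a Krt14 UMI. Thinned to 5000 UMIs, the median cell showed 1851.5 genes in Keap1 cKO and 1827 in Control. The libraries shared 5 cell barcodes, 2 of them on cells of cluster 4. Median mitochondrial shares were 3.44% of UMIs in Keap1 cKO and 4.02% in Control.

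Against the neighbouring suprabasal cluster 13 (61 Keap1 cKO and 134 Control cells), cluster 4 carried most markers of the basal layer in both libraries. This contrast is a description, because the clusters were built from the same genes. Col17a1, the collagen of the hemidesmosome, stood at 290 CPM in cluster 4 and 20.2 CPM in cluster 13 in the Keap1 cKO library, and at 634 CPM and 155 CPM in the Control library. On the log2 scale cluster 4 was higher by 3.84 (Keap1 cKO) and 2.03 (Control). The differences were 5.84 and 6.39 for Dlk2, a membrane protein related to the Notch ligands, and 5.20 and 2.74 for the Wnt ligand Wnt10a. They were 2.77 and 2.49 for the laminin chain Lamb3 and 1.24 and 1.74 for Trp63, the gene of p63. Krt5 separated the clusters by 1.45 in Control, but by only 0.13 in Keap1 cKO, where cluster 13 held 4080 CPM of Krt5 next to 4478 CPM in cluster 4. Over the 3 basal keratins the median difference was 1.69 in Control, with 3 of 3 at least 1.5-fold higher in cluster 4. In Keap1 cKO it was 0.44, with 1 of 3 higher. Among all genes, 9.62% of 5966 were at least 2-fold higher in cluster 4 in the Keap1 cKO library and 7.77% of 5856 in the Control library, and 5.08% and 6.28% were at least 2-fold lower there. Of the 6 markers, 5 were more than 2-fold higher in cluster 4 in both libraries, and Krt5 was so in Control alone.

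The wider contrast had 207 genes at least 2-fold higher in cluster 4 than in cluster 13 in both libraries (3.92% of 5284 genes with at least 50 UMIs and 20 CPM) and 172 lower (3.26%). Jag2, a Notch ligand, led the higher genes at 5.53 in Keap1 cKO and 3.52 in Control. Mki67 and Cenpf, which mark dividing cells, stood at 3.82 and 3.54 in Keap1 cKO and at 2.56 and 2.10 in Control. Snai2, a transcriptional repressor, and Tgfbi, a secreted matrix protein, were higher by 2.39 and 2.32 in Keap1 cKO and by 3.36 and 2.39 in Control. Dst, which links keratin filaments to the hemidesmosome, was higher by 2.25 in Keap1 cKO and 2.45 in Control. Of the lower genes, Krt4 stood at −3.22 in Keap1 cKO and −4.16 in Control, Tgm3, a transglutaminase of late differentiation, at −3.15 and −3.14, and Ly6d at −2.52 and −2.81. Median log2 differences over all genes with at least 20 UMIs were 0.15 in Keap1 cKO and 0.18 in Control, and centring by a median-of-ratios factor moved them to 0.028 in Keap1 cKO and 0.049 in Control. With every cell thinned to 5000 UMIs, 36 of 1561 genes were higher (2.31%) and 45 lower (2.88%) in both libraries.

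**Figure D1:**
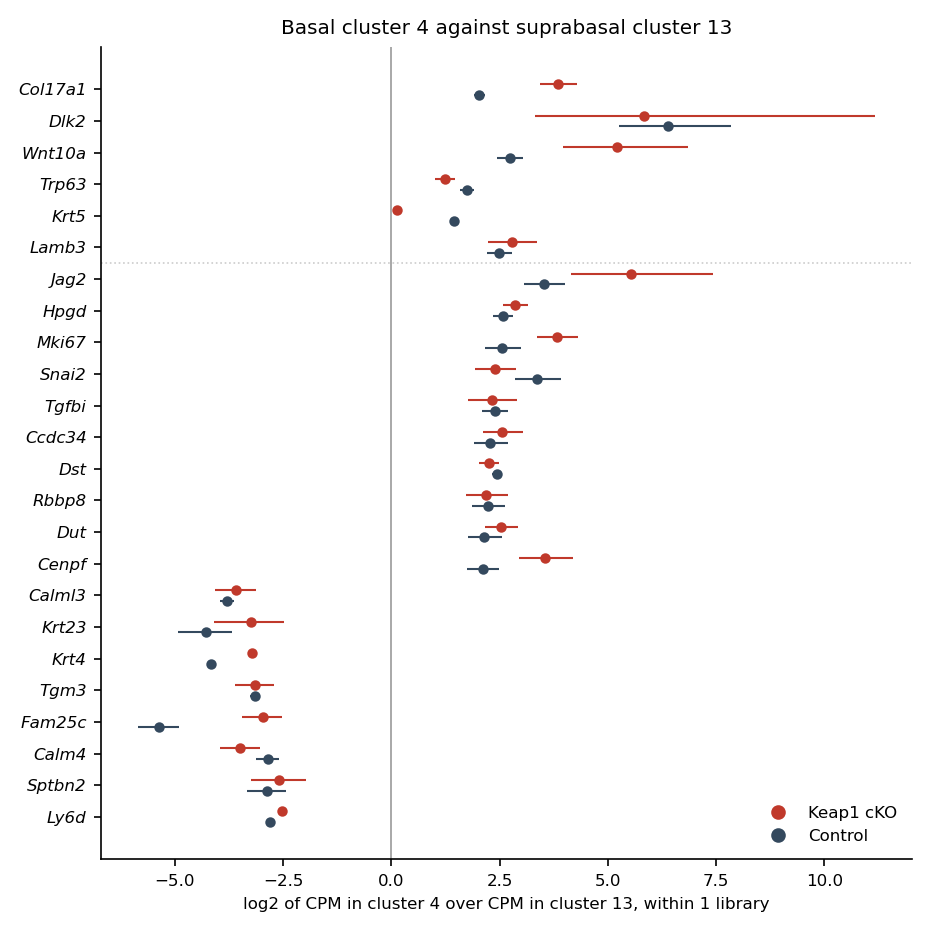
Log2 of CPM in cluster 4 over CPM in cluster 13 within the Keap1 cKO library (red) and the Control library (dark), with 95% counting intervals; genes down the page are the 6 markers above the dotted line, then genes chosen by rank. Jag2, Wnt10a and Col17a1 lie well right of 0 in both libraries and Krt4 well left, while Krt5 sits at 0.13 in Keap1 cKO and 1.45 in Control.

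Between genotypes, cluster 4 showed a large difference in a limited number of genes. Of 6141 genes, 503 were at least 2-fold higher in Keap1 cKO (8.19%) and 332 at least 2-fold lower (5.41%), and the median log2 ratio over all genes was 0.0047. Thinned to 5000 UMIs per cell, 218 of 4544 genes were higher (4.8%) and 379 lower (8.34%). The highest ratios belonged to antimicrobial and wound-type genes, among them S100a8, S100a9, Krt6b, Reg3g and Lcn2, and to the cystine carrier Slc7a11. The lowest belonged to Ndufa4l2 and Egln3, 2 genes known as hypoxia targets, to the decoy receptor gene Il1r2, to the clock output genes Dbp and Tef, and to Krt15.

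**Figure D2:**
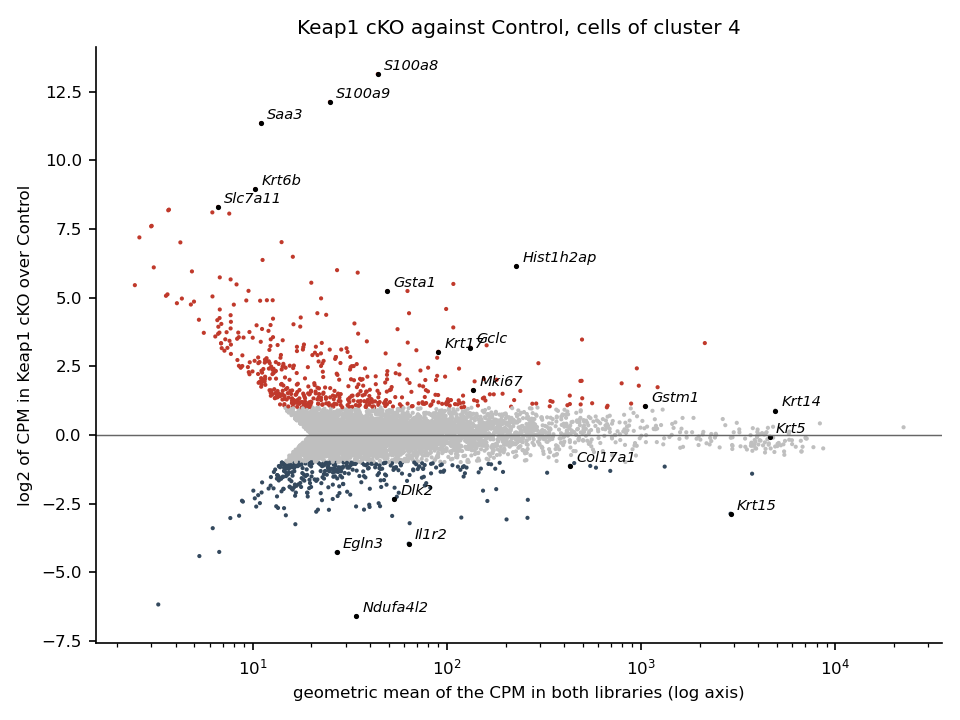
Log2 of CPM in Keap1 cKO over Control (vertical axis) against the geometric mean of both CPM values (log axis) for the 6141 genes of cluster 4 with at least 50 UMIs and 20 CPM; red points are at least 2-fold higher and dark points at least 2-fold lower in Keap1 cKO. S100a8 stands at 13.15 and Ndufa4l2 at −6.61, while Krt5 lies near 0 at −0.07.

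Genes that anchor basal cells were lower in Keap1 cKO. Of 14 hemidesmosome and basement membrane genes, 9 were at least 1.5-fold lower and 0 at least 1.5-fold higher, where the shares over all 10956 genes with at least 20 UMIs were 18.2% lower and 18.9% higher. Their median log2 ratio was −0.71. Col17a1 stood at 290 CPM in Keap1 cKO and 634 CPM in Control, a log2 ratio of −1.13 (−1.24 to −1.01). Dst stood at 387 CPM in Keap1 cKO and 884 CPM in Control, a ratio of −1.19 (−1.29 to −1.10). Lama3 and Lamb3, laminin chains of the basement membrane, shared the direction, at −1.27 and −0.74. Itga6, the integrin that pairs with Itgb4 in the hemidesmosome, stood on the other side at 0.34, with 820 UMIs in Keap1 cKO and 1611 in Control, while Itgb4 stood at −0.63. Col17a1 UMIs were found in 66 of 93 Keap1 cKO cells, 71.0% (60.6 to 79.9), and in 311 of 313 Control cells, 99.4% (97.7 to 99.9). After thinning the shares were 70.0% of 70 Keap1 cKO cells and 93.9% of 311 Control cells. T cells of cluster 3, which should lack the gene, had a Col17a1 UMI in 2.65% of Keap1 cKO and 0 of 59 Control cells, at median depths of 8224.5 UMIs in Keap1 cKO and 5299 UMIs in Control. The 0 of 59 allows a share of up to 5.08%. In the 30 Keap1 cKO and 158 Control cells without a Mki67 or Top2a UMI the list median was −0.41. Deeper cells hold such a UMI more often, and the part of depth in values from these cells was not tested.

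The transcription factors of squamous epithelium were more often lower than higher. Of 18 members 8 were at least 1.5-fold lower and 1 higher, with a median of −0.57. Trp63 stood at 204 CPM in Keap1 cKO and 305 CPM in Control, a ratio of −0.58 (−0.72 to −0.44). Klf5, an abundant factor of the basal layer, stood at 460 CPM in Keap1 cKO and 710 CPM in Control, at −0.63. Sox2 and Pax9, which pattern the foregut and the esophageal lining, were at −1.02 and −0.75, and Sox15 at −1.96. Grhl1, a factor of differentiating keratinocytes, was the member at least 1.5-fold higher, with 62 UMIs in Keap1 cKO and 12 in Control, a ratio of 3.68 (2.78 to 4.71).

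Of the Wnt genes 6 of 12 were at least 1.5-fold lower and 2 higher, with a median of −0.52. Wnt4 stood at 369 CPM in Keap1 cKO and 808 CPM in Control, Wnt10a at 76.2 CPM in Keap1 cKO and 170 CPM in Control, and Wnt6 at 3.83 CPM in Keap1 cKO and 20.6 CPM in Control. Axin2, a general target of Wnt signalling, was higher at 1.13, on 15 UMIs in Keap1 cKO and 17 in Control. Of 11 Notch genes 3 were higher and 3 lower, beside 18.9% and 18.2% over all genes, with a median of −0.30. Dlk2 had 62 UMIs in Keap1 cKO and 779 in Control, a ratio of −2.34 (−2.73 to −1.96), and Notch1 was at −0.55. Notch3 was higher at 2.07 (1.44 to 2.71), and Hes1, the most abundant Notch target here, stood at 278 CPM in Keap1 cKO and 268 CPM in Control.

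The basal keratins parted from each other. Krt15 (mm10, chromosome 11, 100131758 to 100135928, minus strand) stood at 1066 CPM in Keap1 cKO and 7794 CPM in Control, a ratio of −2.87 (−2.93 to −2.82). The median cell held 580 CPM of Krt15 in Keap1 cKO and 8033 CPM in Control. At full depth 22 of 93 Keap1 cKO cells had no Krt15 UMI, against 0 of 313 Control cells. Depth differs here, as 23 Keap1 cKO and 2 Control cells had under 5000 UMIs. Background was also present for Krt15, at 0.556 UMIs per T cell in Keap1 cKO and 1.64 in Control, next to 29.9 in Keap1 cKO and 162 in Control in cluster 4. Krt14 stood at 6661 CPM in Keap1 cKO and 3595 CPM in Control, a ratio of 0.89 (0.86 to 0.92). Krt5, its partner in the filament, stood at 4478 CPM in Keap1 cKO and 4689 CPM in Control. The keratins of wounded epithelium were all higher, with a median of 4.76 over Krt6a, Krt6b, Krt16 and Krt17. Krt17 stood at 258 CPM in Keap1 cKO and 31.6 CPM in Control, a ratio of 3.03 (2.80 to 3.26). Krt16 had 398 UMIs in Keap1 cKO and 11 in Control, but 215 of the 398 lay in 1 cell and 305 in 5 cells, and the other 88 cells shared 93. T cells of the Keap1 cKO library averaged 0.479 Krt16 UMIs. Krt6b had 597 UMIs in Keap1 cKO and 3 in Control, a ratio of 8.95 (7.40 to 11.23), but 439 of the 597 lay in 5 cells. After thinning, 22.9% of Keap1 cKO cells had a Krt6b UMI, which is under the 29.8% of T cells in the same library. At full depth Krt6b averaged 6.42 UMIs per cell in Keap1 cKO cluster 4 and 0.561 in T cells of that library. The part of background in the Krt6b values was not tested. Krt6a stood at 977 CPM in Keap1 cKO and 249 CPM in Control, a ratio of 1.97. In the 30 Keap1 cKO and 158 Control cells without a Mki67 or Top2a UMI its ratio was −0.01.

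In the sums, genes of the layers above showed no common direction. Their joint share of a cell's UMIs was lower in the median Keap1 cKO cell, but single genes went either way. Of 17 suprabasal genes 6 were at least 1.5-fold higher and 5 lower, with a median of −0.03, which was −0.68 in cells without a Mki67 or Top2a UMI. The list took a median of 0.347% of a cell's UMIs in Keap1 cKO and 0.719% in Control. Krt4 stood at 638 CPM in Keap1 cKO and 653 CPM in Control, but 881 of its 1667 Keap1 cKO UMIs lay in 5 cells, and the median cell held 129 CPM in Keap1 cKO and 445 CPM in Control. Krt13 stood at 2281 CPM in Keap1 cKO and 6076 CPM in Control, with 4138 of 5961 Keap1 cKO UMIs in 5 cells. For Krt13 the median cell held 305 CPM in Keap1 cKO and 4991 CPM in Control. For Krtdap it held 950 CPM in Keap1 cKO and 51.3 CPM in Control. Krtdap, a small secreted protein of differentiating keratinocytes, stood at 1652 CPM in Keap1 cKO and 149 CPM in Control, a ratio of 3.48 (3.37 to 3.58), and was found in 82 of 93 Keap1 cKO and 209 of 313 Control cells. T cells had a Krtdap UMI in 63.8% of Keap1 cKO and 35.6% of Control cells, at 1.16 and 0.441 UMIs per cell, where cluster 4 had 46.4 in Keap1 cKO and 3.08 in Control. Of 9 measured cornified envelope genes 7 were higher and 1 lower, with a median of 2.45 that became −0.04 after thinning, when 2 members were left. Sprr2a3, a small proline-rich envelope protein, stood at 187 CPM in Keap1 cKO and 34.2 CPM in Control. Sprr2d had 78 UMIs in Keap1 cKO and 1 in Control, a ratio of 7.599 (5.08 to 12.92). Tgm3 went against the list at −2.60, with 18.4 CPM in Keap1 cKO and 111 CPM in Control. Desmosome and adherens junction genes had a median of 0.20, with 3 of 14 higher and 1 lower. Over all genes the shares were 18.9% higher and 18.2% lower.

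The NRF2 genes were higher in the sums of Keap1 cKO cells, and most of that came from few cells. Over the 6 lists jointly, 37 of 62 measured members were at least 1.5-fold higher and 4 lower, with a median log2 ratio of 0.80. For glutathione synthesis 6 of 6 measured members were higher, with a median of 1.76. Gclc, the catalytic subunit of the limiting enzyme, stood at 397 CPM in Keap1 cKO and 43.7 CPM in Control, a ratio of 3.18 (2.99 to 3.38). Gclm, its modifier subunit, stood at 834 CPM in Keap1 cKO and 375 CPM in Control, at 1.15 (1.07 to 1.24). Slc7a11, the cystine carrier, had 382 UMIs in Keap1 cKO and 0 in Control, at least 317-fold higher when the 0 is set to 3 counts. Medians for the other lists were 0.80 for glutathione S-transferases, 0.36 for detoxification, 0.59 for the thioredoxin system, 0.96 for NADPH supply and 0.49 for heme and iron. Nqo1, the quinone reductase often used to read NRF2 activity, stood at 108 CPM in Keap1 cKO and 70.3 CPM in Control, a ratio of 0.62 (0.40 to 0.83). Txnip, an inhibitor of thioredoxin, was lower at −2.41 (−2.63 to −2.19). Keap1 itself (mm10, chromosome 9, 21229730 to 21239361, minus strand) stood at 57.8 CPM in Keap1 cKO and 76.2 CPM in Control. Since 3′ reads can lie outside deleted exons, which the sources used here do not name, this value does not check the deletion. Nfe2l2, the gene of NRF2, stood at 272 CPM in Keap1 cKO and 232 CPM in Control.

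RefSeq promoter windows of 300 bases (GRCm38.p6) were searched on both strands for the core of the antioxidant response element, TGACNNNGC, where N is any base. It was found in 12.4% of all 32851 windows and in 16 of 74 windows of the NRF2 genes (21.6%), of which 58 of 69 had a window. The windows below belong to 3 NRF2 target genes with a match, of which each stands for another branch (glutathione synthesis, peroxiredoxin repair and thioredoxin reduction), written along the gene's strand with the first match on either strand in capitals. The matches describe letters in these windows and not bound sites.
Gclm, chr3:122245307-122245606, plus strand: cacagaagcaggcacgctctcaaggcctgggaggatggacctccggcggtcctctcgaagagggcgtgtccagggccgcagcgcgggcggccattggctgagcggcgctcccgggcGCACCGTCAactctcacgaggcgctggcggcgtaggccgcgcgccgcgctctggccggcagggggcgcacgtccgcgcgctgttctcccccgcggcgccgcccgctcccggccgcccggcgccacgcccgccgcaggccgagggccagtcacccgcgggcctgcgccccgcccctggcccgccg
Srxn1, chr2:152105274-152105573, plus strand: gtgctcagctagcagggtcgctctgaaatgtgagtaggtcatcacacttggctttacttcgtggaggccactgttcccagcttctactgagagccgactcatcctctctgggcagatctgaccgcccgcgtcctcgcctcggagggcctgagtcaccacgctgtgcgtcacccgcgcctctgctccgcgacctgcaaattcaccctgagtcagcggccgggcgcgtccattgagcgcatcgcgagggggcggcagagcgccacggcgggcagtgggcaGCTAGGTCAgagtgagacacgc
Txnrd1, chr10:82858956-82859255, plus strand: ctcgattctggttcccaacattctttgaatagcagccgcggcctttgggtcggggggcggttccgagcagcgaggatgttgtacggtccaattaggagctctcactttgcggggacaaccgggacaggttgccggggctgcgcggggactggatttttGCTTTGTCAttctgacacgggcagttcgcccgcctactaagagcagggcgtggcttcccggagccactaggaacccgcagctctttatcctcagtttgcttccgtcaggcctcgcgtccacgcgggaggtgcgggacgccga
Srxn1, which regenerates oxidized peroxiredoxins, had 84 UMIs in Keap1 cKO and 40 in Control, a log2 ratio of 2.38 (1.82 to 2.97). Txnrd1, which reduces thioredoxin, had 213 UMIs in Keap1 cKO and 147 in Control, a ratio of 1.85 (1.54 to 2.16).

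Cell by cell, NRF2 genes divided the Keap1 cKO cells of cluster 4 into a small and a large part. The 6 lists took a median of 1.22% of a cell's UMIs in Keap1 cKO and 1.36% in Control. The 90th percentile was 6.59% in Keap1 cKO and 1.75% in Control, and the highest cells held 11.1% in Keap1 cKO and 2.34% in Control. Above the highest Control cell lay 13 of 93 Keap1 cKO cells, 13.98% (7.66 to 22.7), the lowest of them at 2.97%. Within 20% of that limit lay 0 Keap1 cKO and 18 Control cells. These 13 cells are a range of a score and not a type, and their NRF2 genes are high by choice. They held 916 of the 1036 Gclc UMIs, 354 of the 382 Slc7a11 UMIs, 754 of the 791 Gsta1 UMIs and 63 of the 84 Srxn1 UMIs. The other 80 Keap1 cKO cells stood at 52.7 CPM of Gclc, against 43.7 CPM in Control. Nqo1 in those 80 cells was at 35.1 CPM, against 70.3 CPM in Control, and Gstm1 at 376 CPM, against 728 CPM in Control. Without the 13 cells the joint median was 0.10 in place of 0.80, and that of glutathione synthesis 0.69 in place of 1.76. The glutathione S-transferase median turned to −0.24, with Gstm1 at −0.95 and, for heme breakdown, Blvrb at −0.87. Metallothioneins, which were not among the NRF2 lists, had a median of 0.55 without the 13 cells, in place of 1.40.

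Genes outside the NRF2 lists also set the 13 cells apart from the other 80. Mt3, a metallothionein, stood at 2980 CPM in the 13 cells, 40.4 CPM in the 80 cells and 27.7 CPM in Control. Spink5, a protease inhibitor of squamous epithelium, stood at 1622 CPM in the 13 cells, 69.4 CPM in the 80 cells and 4.46 CPM in Control. Cat, the gene of catalase, stood at 628 CPM in the 13 cells, 29.4 CPM in the 80 cells and 64.3 CPM in Control, and Krt17 at 732 CPM, 188 CPM and 31.6 CPM in these groups. These genes were chosen after their values were seen. Krt15 and Krt13 were low in the 13 cells, at 74.4 CPM and 167 CPM, while the 80 cells held 1212 CPM and 2593 CPM and Control 7794 CPM and 6076 CPM. S100a8 lay mostly outside the 13 cells, with 26 UMIs in the 13 cells, 10916 in the 80 cells and 3 in Control. The acute phase and antimicrobial list took a median of 0.124% of UMIs in the 13 cells, 0.606% in the 80 cells and 0.0606% in Control. For basal genes, Col17a1 stood at 280 CPM in the 13 cells and 292 CPM in the 80 cells, against 634 CPM in Control, and Trp63 at 199 CPM in the 13 cells and 205 CPM in the 80 cells, against 305 CPM in Control. The 13 cells had a median of 11683 UMIs and the 80 cells 26765. Depth was low in 4 of the 13, with under 5000 UMIs, and its part in these values was not tested.

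**Figure D3:**
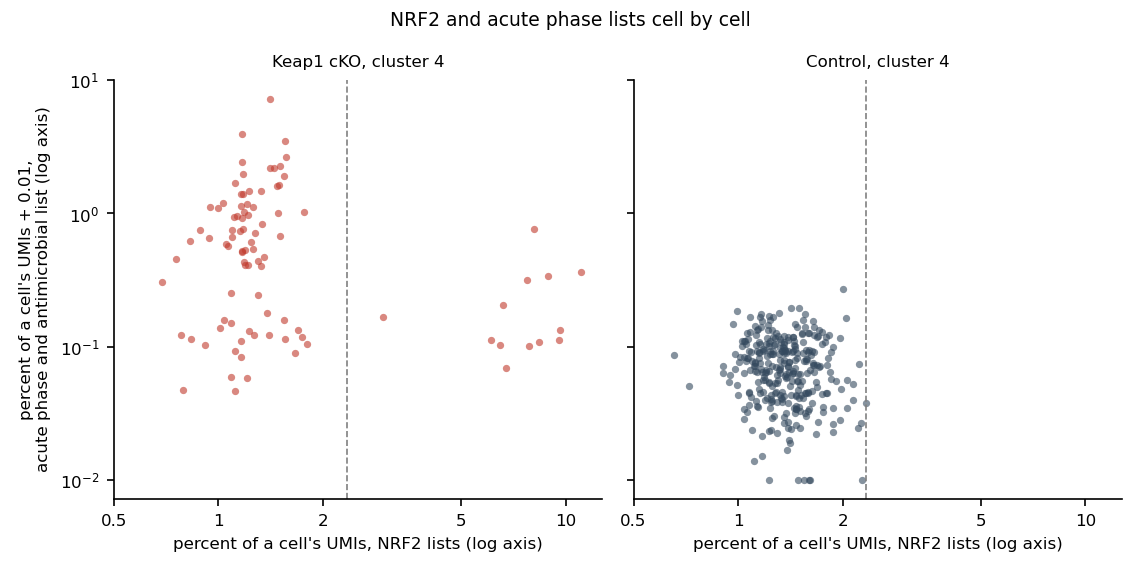
Each point is a cell of cluster 4, Keap1 cKO on the left and Control on the right: the percent of its UMIs from the NRF2 lists (horizontal, log axis) and from the acute phase and antimicrobial list plus 0.01 (vertical, log axis). The dashed line marks the highest Control cell at 2.34%; 13 Keap1 cKO cells lie right of it, and the highest acute phase share, 7.21% in Keap1 cKO, lies left of it, against a highest share of 0.261% in Control.

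Antimicrobial and acute phase genes had the highest median of the lists described. Of 11 measured members 8 were at least 1.5-fold higher and 2 lower, with a median of 6.00. S100a8 and S100a9, the subunits of calprotectin, had 10942 and 5415 UMIs in Keap1 cKO and 3 and 0 in Control. The S100a8 ratio was 13.15 (11.60 to 15.42), and S100a9 was at least 4488-fold higher. S100a8 UMIs were found in 81 of 93 Keap1 cKO cells, 87.1% (78.5 to 93.2), and in 3 of 313 Control cells. After thinning, 75.7% of Keap1 cKO and 0.322% of Control cells had an S100a8 UMI. T cells of the Keap1 cKO library had an S100a8 UMI in 74.3% of cells (53.7% after thinning), but averaged 1.65 UMIs per cell, against 118 in cluster 4. Of the 6 neutrophil markers, which include both calprotectin genes, 4 had UMIs in Keap1 cKO and 2 in Control, and they summed to 6263 CPM in Keap1 cKO and 0.616 CPM in Control. Retnlg had 4 UMIs in Keap1 cKO and 0 in Control and Csf3r 4 in Keap1 cKO and 1 in Control, while Cxcr2 and Ly6g were at 0 in both. At least 2 of the 6 were found in 74 of 93 Keap1 cKO and 0 of 313 Control cells. Reg3g, an antimicrobial lectin, had 333 UMIs in Keap1 cKO and 0 in Control, at least 276-fold higher, with 241 of them in 1 cell. Lcn2, the iron-sequestering lipocalin, stood at 160 CPM in Keap1 cKO and 1.23 CPM in Control, a ratio of 7.02 (6.03 to 8.25). Saa3, an acute phase protein, had 1056 UMIs in Keap1 cKO and 1 in Control, but 1042 lay in 1 cell, and the ratio of 11.36 (8.88 to 16.66) became 5.46 without cells holding 2 or more T cell markers. Timp1, an inhibitor of matrix proteases, likewise had 250 of 267 UMIs in 1 cell, and its 6.37 became 2.87. Wfdc2, a relative of the protease inhibitor Slpi, and Defb1, a beta-defensin, were lower at −0.59 and −1.19. Uox, urate oxidase, had 156 UMIs over 34 Keap1 cKO cells and 0 in Control.

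Most measured class I genes were higher. Of 9 class I genes 8 were higher and 1 lower, with a median of 1.21. H2-K1 stood at 290 CPM in Keap1 cKO and 104 CPM in Control, a ratio of 1.48 (1.33 to 1.63), and H2-D1 at 317 CPM in Keap1 cKO and 171 CPM in Control. Class II genes had a median of 1.04, with Cd74 at 64.3 CPM in Keap1 cKO and 32.2 CPM in Control, or 1.81 UMIs per cell in Keap1 cKO and 0.668 in Control. T cells also held more Cd74 in the Keap1 cKO library, at 1.45 UMIs per cell, against 0.237 in Control, and red blood cells had 0.6 in Keap1 cKO and 0.185 in Control. The part of this background in the class II values was not tested. Of 10 interferon genes 5 were higher and 3 lower, with a median of 0.68. Ifitm3, a membrane protein induced by interferon, stood at 2218 CPM in Keap1 cKO and 665 CPM in Control, while Ifi27 was lower at −1.27. Cytokines had a median of 0.77 over 10 members and turned to −0.14 after thinning, when 2 members were left. Areg, an EGF receptor ligand, had 53 UMIs in Keap1 cKO and 0 in Control, 50 of them in the 13 cells with high NRF2 genes. Il1r2, a decoy receptor for interleukin 1, stood at 16.1 CPM in Keap1 cKO and 250 CPM in Control, a ratio of −3.96 (−4.44 to −3.52).

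RNA of other cell types was also present in cluster 4, and its direction between the libraries depended on the type. All 8 T cell markers had UMIs in Keap1 cKO and 7 of 8 in Control, where Cd163l1 was at 0, and they summed to 92.2 CPM in Keap1 cKO and 3.69 CPM in Control. At least 2 of them were found in 41 of 93 Keap1 cKO and 2 of 313 Control cells. Trdc averaged 0.849 UMIs per cell in Keap1 cKO cluster 4, 0.0917 in red blood cells and 16.5 in T cells of the same library. Red cell markers summed to 3609 CPM in Keap1 cKO and 661 CPM in Control, but 4858 of 5748 Hbb-bs UMIs lay in 1 Keap1 cKO cell. Cell by cell the direction was the other one. At least 2 red cell markers were found in 76 of 93 Keap1 cKO and 308 of 313 Control cells. Their median share of UMIs was 0.0439% in the 13 cells with high NRF2 genes, 0.0549% in the other 80 and 0.0629% in Control. Fibroblast markers summed to 628 CPM in each library, and macrophage and dendritic markers to 61.6 CPM in Keap1 cKO and 83.0 CPM in Control. Without cells that held 2 or more T cell markers, the acute phase median was 4.03 and those of class I and class II genes 1.25 and 1.64. Doublets were not called, and the part of such RNA in the immune gene values was otherwise not tested.

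Hypoxia targets included the lowest ratios in the cluster. Ndufa4l2, which lowers mitochondrial complex I activity under hypoxia, had 9 UMIs in Keap1 cKO and 2182 in Control, 3.44 CPM in Keap1 cKO and 336 CPM in Control, a ratio of −6.61 (−7.74 to −5.68). It was seen in 6 of 93 Keap1 cKO cells, 6.45% (2.40 to 13.5), and 244 of 313 Control cells, 78.0% (72.9 to 82.4). After thinning, 0 of 70 Keap1 cKO and 57.9% of 311 Control cells had an Ndufa4l2 UMI, and T cells had one in 0.794% of Keap1 cKO and 3.39% of Control cells. Egln3, an oxygen-sensing prolyl hydroxylase, had 16 UMIs in Keap1 cKO and 774 in Control, a ratio of −4.28 (−5.10 to −3.57), and its relative Egln1 was at −0.69. Both Ndufa4l2 and Egln3 were low in the 13 cells with high NRF2 genes, at 0 and 3 UMIs, as well as in the other 80, at 9 and 13 UMIs. The rest of the list was mixed. Of 15 measured members 4 were at least 1.5-fold higher and 7 lower, with a median of −0.52. Adm, the vasodilator peptide adrenomedullin, was at 2.72, and Slc2a1, the glucose carrier, at 0.62. Glycolytic enzymes had a median of 0.36, with 1 of 13 at least 1.5-fold higher, which was Pgk1 at 0.64. The core of the hypoxia response element, ACGTG on either strand, was found in 19.6% of all windows and in 16 of 24 windows of the hypoxia list (66.7%). Of the 17 hypoxia genes 16 had a window, the other being Ndufa4l2. The Egln3 window is shown because this gene had one of the lowest ratios, with the first match in capitals.
Egln3, chr12:54203825-54204124, minus strand: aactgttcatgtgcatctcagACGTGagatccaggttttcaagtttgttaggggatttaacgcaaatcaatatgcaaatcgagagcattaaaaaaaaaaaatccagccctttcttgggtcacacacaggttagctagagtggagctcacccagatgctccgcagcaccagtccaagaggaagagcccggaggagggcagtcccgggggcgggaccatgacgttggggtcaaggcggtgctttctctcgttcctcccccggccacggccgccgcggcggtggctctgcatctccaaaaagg
Genes of the clock output were low as well, with Dbp at 5.36 CPM in Keap1 cKO and 51.1 CPM in Control and Tef at 9.57 CPM in Keap1 cKO and 63.4 CPM in Control. Other abundant Control genes in this range were Apoe, at 91.1 CPM in Keap1 cKO and 739 CPM in Control, and Cyp2f2, a cytochrome P450, at 41.7 CPM in Keap1 cKO and 336 CPM in Control. Gsn, the actin-severing gelsolin, stood at 69.7 CPM in Keap1 cKO and 588 CPM in Control, or 1.957 UMIs per cell in Keap1 cKO and 12.2 in Control, but cells of other types differed likewise. T cells averaged 0.751 Gsn UMIs in Keap1 cKO and 3.44 in Control, and red blood cells 0.258 in Keap1 cKO and 4.17 in Control. Dbp averaged 0.143 UMIs per T cell in Keap1 cKO and 0.373 in Control, where cluster 4 had 0.151 and 1.06. Tef averaged 0.106 UMIs per T cell in Keap1 cKO and 0.119 in Control, where cluster 4 had 0.269 and 1.32. Whether the clock gene difference is shared by other cell types was not tested.

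Cell cycle genes were higher throughout their list. All 18 members were at least 1.5-fold higher in Keap1 cKO, with a median of 2.47. Top2a, the topoisomerase of dividing cells, had 774 UMIs in Keap1 cKO and 89 in Control, a ratio of 4.43 (4.12 to 4.77), and Cdk1 had 261 in Keap1 cKO and 30 in Control. Hist1h2ap, a histone gene expressed with DNA replication, stood at 1910 CPM in Keap1 cKO and 27.1 CPM in Control. The median cell gave 0.137% of its UMIs to the list in Keap1 cKO and 0.0260% in Control. A Mki67 or Top2a UMI was found in 63 of 93 Keap1 cKO cells, 67.7% (57.3 to 77.1), and 155 of 313 Control cells, 49.5% (43.8 to 55.2). After thinning the shares were 52.9% (40.6 to 64.9) in Keap1 cKO and 28.3% (23.4 to 33.7) in Control. In the 30 Keap1 cKO and 158 Control cells without such a UMI the median was 0.45. A lower median follows from this choice, since both genes mark dividing cells. The authors' annotation holds a separate cluster of dividing keratinocytes, cluster 15, with 7 Keap1 cKO and 75 Control cells; how the clustering parted cycling cells was not tested. With clusters 4 and 15 summed, the cell cycle median was 1.58, with 14 of 18 members higher and 1 lower, and that of the hemidesmosome list −0.69. Over both clusters the cell cycle list summed to 2277 CPM in Keap1 cKO and 1277 CPM in Control. In cluster 4 alone the list summed to 2092 CPM in Keap1 cKO and 432 CPM in Control.

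In cluster 4 sterol and fatty acid synthesis had a median of 1.49. At the 1.5-fold limit 17 of 21 members were higher and 0 lower. Sqle, which makes squalene epoxide, had 64 UMIs in Keap1 cKO and 12 in Control, a ratio of 3.73 (2.83 to 4.75). Idi1, an isomerase earlier in the pathway, stood at 62.8 CPM in Keap1 cKO and 8.004 CPM in Control, and Scd2, a desaturase, at 126 CPM in Keap1 cKO and 30.9 CPM in Control. Hmgcs1, the most abundant member in Control, stood at 110 CPM in Keap1 cKO and 121 CPM in Control. The list median was 0.60 after thinning and 0.44 in cells without a Mki67 or Top2a UMI. Integrated stress and serine genes had a median of 0.73, with 7 of 12 higher and 1 lower, including Phgdh, the first enzyme of serine synthesis, at 318 CPM in Keap1 cKO and 182 CPM in Control. Mthfd2, of mitochondrial folate metabolism, was at 2.80 (2.17 to 3.46). All 4 metallothioneins were higher, with Mt4 at 1521 CPM in Keap1 cKO and 413 CPM in Control.

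**Figure D4:**
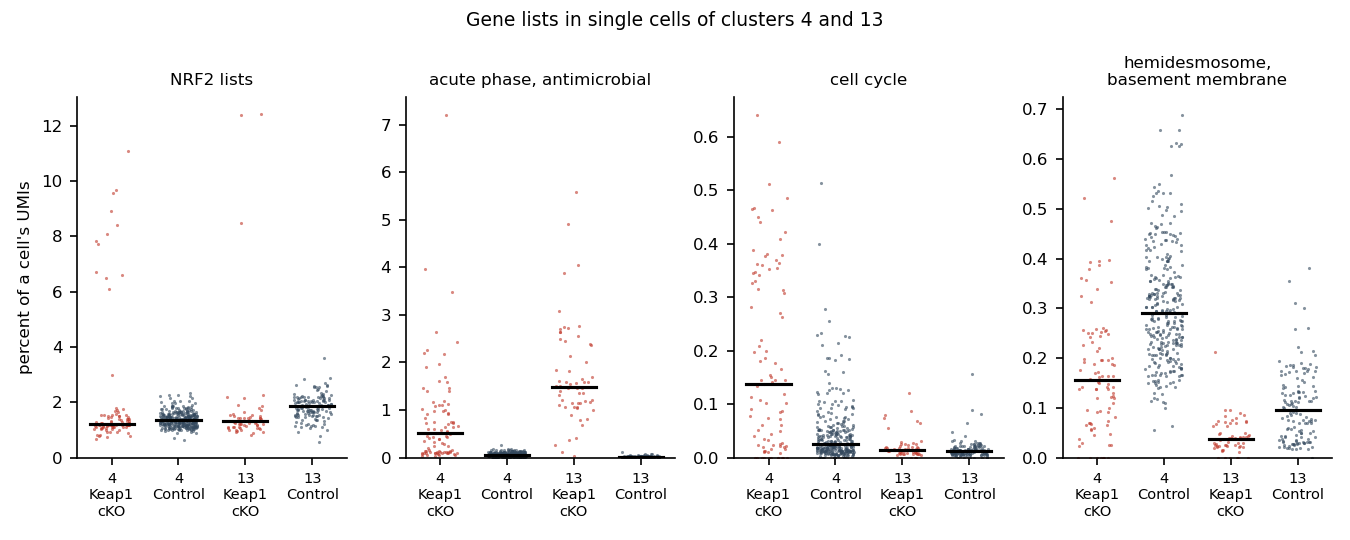
Percent of a cell's UMIs from 4 gene lists in each cell of clusters 4 and 13, Keap1 cKO left of Control in each cluster, with black lines at the medians. In cluster 4 the medians for acute phase genes are 0.515% in Keap1 cKO and 0.0606% in Control, and those for the hemidesmosome list 0.155% in Keap1 cKO and 0.290% in Control.

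The remaining lists had medians between −0.20 and 0.53. Heat shock genes had a median of 0.53, nuclear genes of oxidative phosphorylation 0.33, proteasome subunits 0.30, p53 targets 0.24 and EGF family genes 0.29. Immediate early genes stood at −0.20 and ribosomal proteins at −0.20. KEAP1 and NRF2 partners had a median of 0.15, with 0 of 10 at least 1.5-fold higher and 1 lower, the small Maf protein gene Maff at −1.49. Receptor and feedback genes of IL-17 and IL-1 had a median of 0.41 and matrix proteases and their inhibitors 0.45. Without cells with 2 or more T cell markers these last medians were −0.31 and −0.83.

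The same contrast in cluster 13 differed for several of these groups, as a description of these libraries. There 255 of 5577 genes were at least 2-fold higher in Keap1 cKO (4.57%) and 221 lower (3.96%). At 1.5-fold over genes with at least 20 UMIs the shares were 14.3% higher and 15.4% lower. The NRF2 lists had a joint median of 0.80 in cluster 4 and of −0.34 in cluster 13, where 14 of 62 members were higher and 23 lower. The 0.80 was 0.10 without the 13 cells, which were chosen by these genes, while no cells were left out of cluster 13. In cluster 13 the NRF2 lists took more of the UMIs in 3 of 61 Keap1 cKO cells, up to 12.4%, than in the highest Control cell of that cluster, at 3.62%. Cell cycle genes stood at 2.47 in cluster 4 and 0.34 in cluster 13, and sterol and fatty acid genes at 1.49 in cluster 4 and 0.059 in cluster 13. Stress keratins were at 4.76 in cluster 4 and 6.71 in cluster 13, and the hemidesmosome list at −0.71 in cluster 4 and −1.01 in cluster 13. Whether these differences exceed the spread between animals was not tested. Gene by gene, the cluster 4 ratio exceeded that of cluster 13 most for Gsta1, at 5.07 (4.61 to 5.53), Spink5 at 5.05, Gsta2 at 5.01, Hist1h2ap at 4.31 and Krtdap at 3.22, among the genes ranked for naming and leaving out Slc7a11, which was at 0 UMIs in Control cluster 4. Leaving out the 13 cells took the cluster 4 ratio from 5.24 to 1.02 for Gsta1, from 5.91 to 3.96 for Spink5 and from 4.38 to 2.31 for Gsta2. Hist1h2ap and Krtdap then stood at 6.19 and 3.63, in place of 6.14 and 3.48. Gsta1 stood at 303 CPM in Keap1 cKO and 8.004 CPM in Control in cluster 4, and at 121 CPM in Keap1 cKO and 108 CPM in Control in cluster 13. The largest deficits were those of Fstl1 at −3.48, Tnxb at −3.42, Krt17 at −3.36, Pi16 at −3.32, Dpt at −3.31 and Krt10 at −3.07. Fstl1, Tnxb, Pi16 and Dpt are genes of fibroblasts, whose markers were at least 1.5-fold higher in Keap1 cKO for 2 of 8 members and lower for 4 in cluster 4, and higher for 8 of 8 and lower for 0 in cluster 13.

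**Figure D5:**
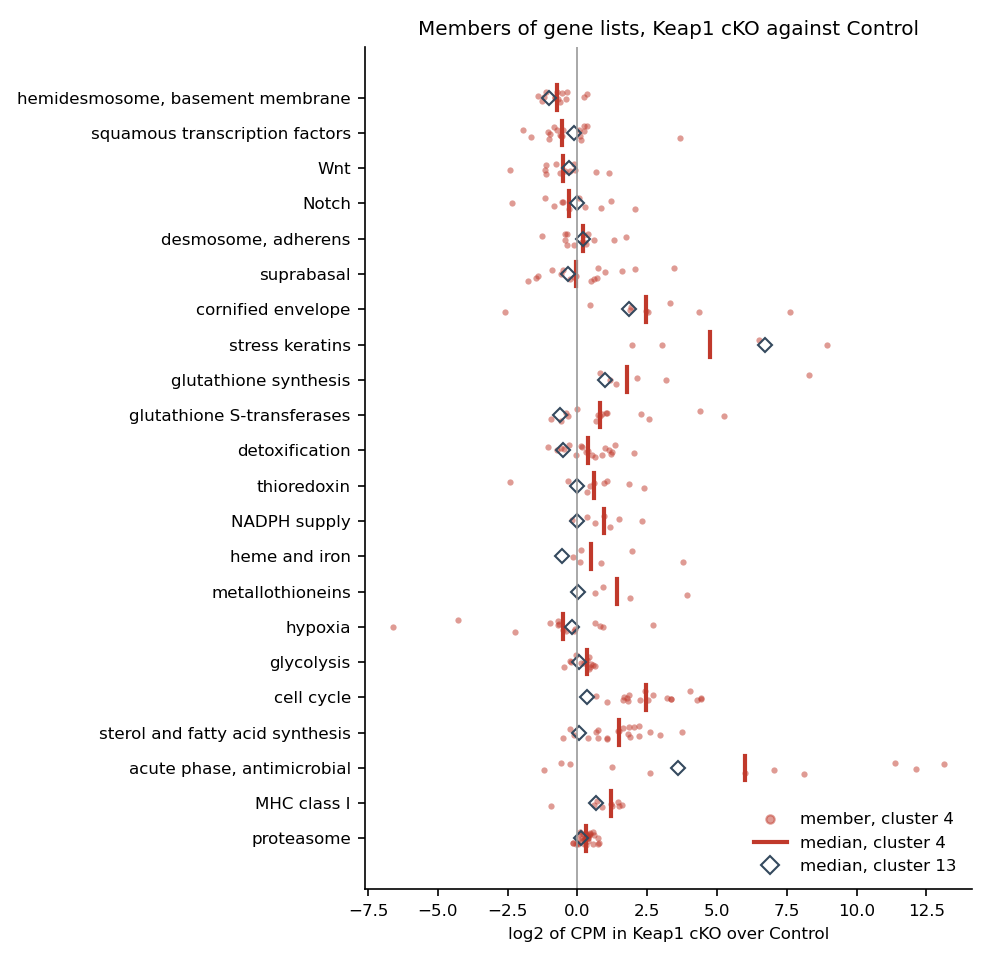
Log2 of CPM in Keap1 cKO over Control for members of the gene lists: points are members in cluster 4, red bars their medians and open diamonds the medians in cluster 13. In cluster 4 the bars stand at −0.71 for the hemidesmosome list, 2.47 for the cell cycle and 6.00 for acute phase genes; diamonds for glutathione S-transferases and detoxification lie left of 0 at −0.63 and −0.51.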

How the data were processed

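The authors deposited natural log values, ln of a gene's UMIs scaled to 10000 per cell plus 1, with a table of library, cluster number and cell type for each cell. Cell Ranger 6.0.1, Seurat 4.0.2, R 4.1.1 and mm10 are named per the submitters' processing notes; the sources used here do not give parameters or the gene annotation. Whole UMI counts were recovered from each cell's smallest step (100% of positive values whole within 0.01 UMIs, 18595 genes), summed by cluster and library and divided by the sum. Ratios carry exact conditional binomial intervals and shares Clopper-Pearson intervals, both at 95% and both for counting error only. With 1 library per genotype no test across samples was possible. The calculations were tested on simulated sums with independent counts for each gene. That simulation held no UMIs gathered in single cells, so it does not test the intervals for such genes. Doublets were neither called nor removed here. Analyses used Python 3.11.15, NumPy 2.4.6, SciPy 1.17.1 and pandas 2.3.3.

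Genes were called at 2-fold where both libraries summed to 50 UMIs or more and either reached 20 CPM; list members were measured with at least 20 UMIs and counted at 1.5-fold. A gene at 0 was set to 3 counts over the group for a bound. Named genes were the 14 highest and 14 lowest genotype ratios, the 12 higher and 8 lower genes of the cluster contrast and the 6 highest and 6 lowest ratios of ratios, with at least 100 UMIs and 50 CPM, plus from each list the 2 most abundant members and the 2 with the largest ratio. The 6 markers and known NRF2 and keratin genes were always included; other genes named were chosen after their values were seen. Not every gene that the rule picks is reported here. Members and lists were chosen with earlier results of these data known. Alternatives changed the scaling factor, the minimum count, the weighting and depth of cells and which cells were kept. Gene positions are those of GENCODE on mm10.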

Additional observations from a re-analysis of the deposited data

Results flagged for a closer look

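The glutathione S-transferase genes stood on opposite sides of 0 in the 2 keratinocyte clusters. Their median log2 ratio of Keap1 cKO over Control was 0.80 in cluster 4 and −0.63 in cluster 13. At the 1.5-fold limit 10 of 15 genes were higher and 1 lower in cluster 4, while 1 of 15 was higher and 8 lower in cluster 13. Over all genes the shares were 18.9% higher and 18.2% lower in cluster 4, and 14.3% and 15.4% in cluster 13. With 1 library per genotype the difference between the clusters was not tested. Without the 13 Keap1 cKO cells of cluster 4 that lay above every Control cell in NRF2 genes, the cluster 4 median was −0.24. These genes were part of the score that picked the 13 cells, so a lower median follows from the choice. No cells were left out of cluster 13, where 3 Keap1 cKO and 14 Control cells lay above the same limit.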

How the results depend on the processing

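No paired analysis was possible because each genotype had 1 library, and no replicate could be left out. The genes at least 2-fold higher in Keap1 cKO numbered 503, but 218 of 4544 with each cell thinned to 5000 UMIs, 274 without cells with a Mki67 or Top2a UMI, 1089 at a minimum of 20 UMIs with no CPM minimum and 255 at 200 UMIs. The 332 lower genes became 529 without the Mki67 or Top2a cells and 982 at 20 UMIs. For cluster 4 against cluster 13, thinning gave 36 higher and 45 lower of 1561 genes, beside 207 and 172 of 5284. The hemidesmosome median of −0.71 was −0.41, the cell cycle median of 2.47 was 0.45 and the joint NRF2 median of 0.80 was 1.55 without the Mki67 or Top2a cells. As a mean over cells the cell cycle median was 1.98, and without the 13 cells high in NRF2 genes the joint median was 0.10. Directions turned, among others, for cornified envelope genes at −0.038 and cytokines at −0.14 after thinning, and for glutathione S-transferases at −0.24, detoxification at −0.32, heme and iron at −0.14, Nqo1 at −1.002, Gstm1 at −0.95, Blvrb at −0.87, Adh7 at −1.96 and Ftl1 at −0.81 without the 13 cells. Without the Mki67 or Top2a cells they turned for Fam25c at −0.44, Krt6a at −0.0088, Dsg1b at −0.65, Cenpf at −0.94, desmosome genes at −0.42 and immediate early genes at 0.46, and without cells with 2 T cell markers for Plat at −1.37, IL-17 and IL-1 genes at −0.31 and matrix genes at −0.83. Settings that leave out cells, and thinning, hold fewer cells or UMIs. Leaving out the 13 cells lowers the NRF2 medians by choice, since these genes picked the cells. Likewise, leaving out cells with a Mki67 or Top2a UMI lowers the cell cycle median by choice, and 30 Keap1 cKO and 158 Control cells remained. Beyond that the cause was not tested. Over all alternatives 21 of 385 list medians, from 13 of 35 lists, and 49 of 1637 named gene ratios, from 31 of 165 genes, had the other sign. The alternatives without T cell marker cells, without the 13 cells and with at least 5000 UMIs unthinned were chosen after seeing the data. Leaving out cells with 2 markers of any other type was not run, since 11 Keap1 cKO and 5 Control cells remained. Depth limits genes under 20 UMIs, and 23 Keap1 cKO cells under 5000 UMIs drop out on thinning.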
